A study of Homo sapiens with 6 samples.

Results

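A group of 10 small nucleolar RNA (snoRNA) host genes was followed in RNA-seq of total RNA from SEM cells with wild-type CTCF (CTCF-WT) or with CTCF lacking its RNA-binding region (CTCF-dRBR). They are *GAS5*, *SNHG1*, *SNHG5*, *SNHG6*, *SNHG7*, *SNHG8*, *SNHG12*, *SNHG15*, *SNHG16* and *ZFAS1*, taken by gene symbol, and are 10 of the 57820 genes in the deposited tables. All 10 passed the filter on low values, which left 14044 genes to test. SEM is an established cell line from a human B-cell acute lymphoblastic leukemia. In both groups the endogenous CTCF, a DNA-binding protein that shapes chromatin loops, was fused to miniAID-mClover3, and the cells carried OsTIR1(F74G), so that 5-Ph-IAA led to its degradation. CTCF-WT cells were meant to express induced HA-tagged wild-type CTCF in its place, and CTCF-dRBR cells TRE3G-HA-CTCF-dRBR, which lacks that region (RBR). 5-Ph-IAA was given for 24 h and doxycycline, at 1 µg/mL, for the last 18 h of them. The genotype labels of the CTCF-WT libraries name only the tagged endogenous CTCF, so their group rests on the titles. There were 3 libraries in each group. Nothing in the labels says whether they came from separate cultures, and the p-values then measure only the spread between these libraries.

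A snoRNA host gene carries snoRNAs in its introns. When the transcript is spliced, the introns are trimmed to mature snoRNAs, which join proteins in the nucleolus and guide chemical modification of ribosomal RNA. C/D box snoRNAs direct ribose methylation and H/ACA box snoRNAs direct pseudouridylation. The spliced exons of these noncoding hosts mostly hold no long reading frame, and the spliced RNA of several of them is removed by nonsense-mediated decay as it is translated. Many hosts start transcription in a terminal oligopyrimidine (TOP) tract, the C- and T-rich start that ribosomal protein genes also have and that ties their translation to growth signals.

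The start regions of 8 hosts are shown for this feature, taken from the RefSeq promoter table (GRCh38.p14). *SNHG6* and *SNHG15* are named only and were not searched, so the shares given below do not cover them. Each line gives 70 bases on the gene strand, 40 before the annotated start and 30 from the start on. Capitals mark a TOP tract, taken as a C followed by at least 4 C or T bases and beginning within 10 bases of the start, and the letters TATAA where they begin 20 to 35 bases before it.
GAS5 (chr1:173869016-173869085, minus strand): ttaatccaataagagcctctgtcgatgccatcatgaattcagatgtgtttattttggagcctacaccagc
SNHG1 (chr11:62855856-62855925, minus strand): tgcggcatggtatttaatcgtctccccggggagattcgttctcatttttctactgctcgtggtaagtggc
SNHG5 (chr6:85678704-85678773, minus strand): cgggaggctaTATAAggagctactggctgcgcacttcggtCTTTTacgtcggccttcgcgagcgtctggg
SNHG7 (chr9:136728155-136728224, minus strand): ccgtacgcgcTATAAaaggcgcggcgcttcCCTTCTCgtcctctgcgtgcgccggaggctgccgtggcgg
SNHG8 (chr4:118278722-118278791, plus strand): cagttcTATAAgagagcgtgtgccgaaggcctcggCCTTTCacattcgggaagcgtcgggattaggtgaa
SNHG12 (chr1:28581844-28581913, minus strand): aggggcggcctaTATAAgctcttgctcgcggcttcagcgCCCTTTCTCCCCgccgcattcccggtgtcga
SNHG16 (chr17:76557724-76557793, plus strand): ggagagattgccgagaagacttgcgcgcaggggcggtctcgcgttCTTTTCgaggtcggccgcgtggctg
ZFAS1 (chr20:49278602-49278671, plus strand): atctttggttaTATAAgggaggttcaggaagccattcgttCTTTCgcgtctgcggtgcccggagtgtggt

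A TOP tract was found in 6 of these 8 starts, against 33.5% of the 35116 starts in the table. The tract of *SNHG12*, CCCTTTCTCCCC, was 12 bases long, and the others had 5 to 7. In *SNHG5* and *ZFAS1* the tract began at the annotated start base itself. That of *SNHG7* lay wholly before the annotated start, and that of *SNHG16* began after it. *GAS5* and *SNHG1* had no match in this window. TATAA lay upstream of the start in 5 of the 8 hosts, *SNHG5*, *SNHG7*, *SNHG8*, *SNHG12* and *ZFAS1*, against 3.70% of all starts, and each of these 5 also had a TOP tract, a pair held by 1.25% of all starts. Only the gene strand was searched, and TATAA was chosen after the sequences had been seen. Among the ribosomal protein genes that host snoRNAs, 15 of the 16 with an entry had a TOP tract at any listed start, against 38.4% of all 27305 symbols. TATAA was held by 1 of the 16, against 4.7% of all symbols. Of 9 other long noncoding hosts with an entry, 6 had a TOP tract and 0 had TATAA. Of 21 other protein-coding hosts, 8 had a TOP tract and 5 had TATAA.

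The libraries were not alike in ways that touch these genes. Total expected counts were 51732177 to 53166735 in CTCF-WT, against 30034505 to 50457168 in CTCF-dRBR, the lowest in CTCF-dRBR replicate 1. Spearman's rho between the GC content of a gene and its deviation from the mean of the 6 libraries, across genes, was −0.78 in CTCF-dRBR replicate 1 and −0.42 in CTCF-dRBR replicate 2, and 0.34 to 0.71 in the other 4 libraries. CTCF had 223 ± 22 CPM (counts scaled to library size, SD, n = 3) in CTCF-WT against 263 ± 10.4 in CTCF-dRBR (log2 fold change 0.24, adjusted p = 0.202, limma-voom), and endogenous and induced transcripts were not told apart. Of 8 B-lineage markers 7 were tested, with a summed level of 883 to 1067 CPM in CTCF-WT against 609 to 1023 CPM in CTCF-dRBR; *DNTT* was under the filter. The summed T cell markers were at most 0.602 CPM, with *CD3D* at 0 counts, the summed erythroid markers at most 0.10 CPM, with *HBA1* at 0 counts, and the summed myeloid markers at most 13.2 CPM.

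None of the 10 host genes differed between CTCF-dRBR and CTCF-WT at an adjusted p under 0.05, and neither did any of the 14044 genes tested (0%). Their levels were lower in CTCF-dRBR by the estimate for 8 of the 10, where 50.6% of all genes tested had an estimate below 0. The median log2 fold change of the 10 was −0.19, beside −0.0076 for all genes tested. At an unadjusted p under 0.05, *SNHG8*, *SNHG12* and *SNHG16* were lower and 0 were higher, where 25.4% of all genes tested passed, 12.8% lower and 12.6% higher. In CPM, the groups did not overlap for *SNHG12*, *SNHG15* and *SNHG16*, all lower in CTCF-dRBR, where 17.5% of all genes tested lay wholly lower and 20.0% wholly higher. The quasi-likelihood test of edgeR also called 0 of the 10. No test was made of the 10 as a set, and in bulk RNA fewer cells with a transcript and less of it per cell cannot be told apart.

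**Figure D1:**
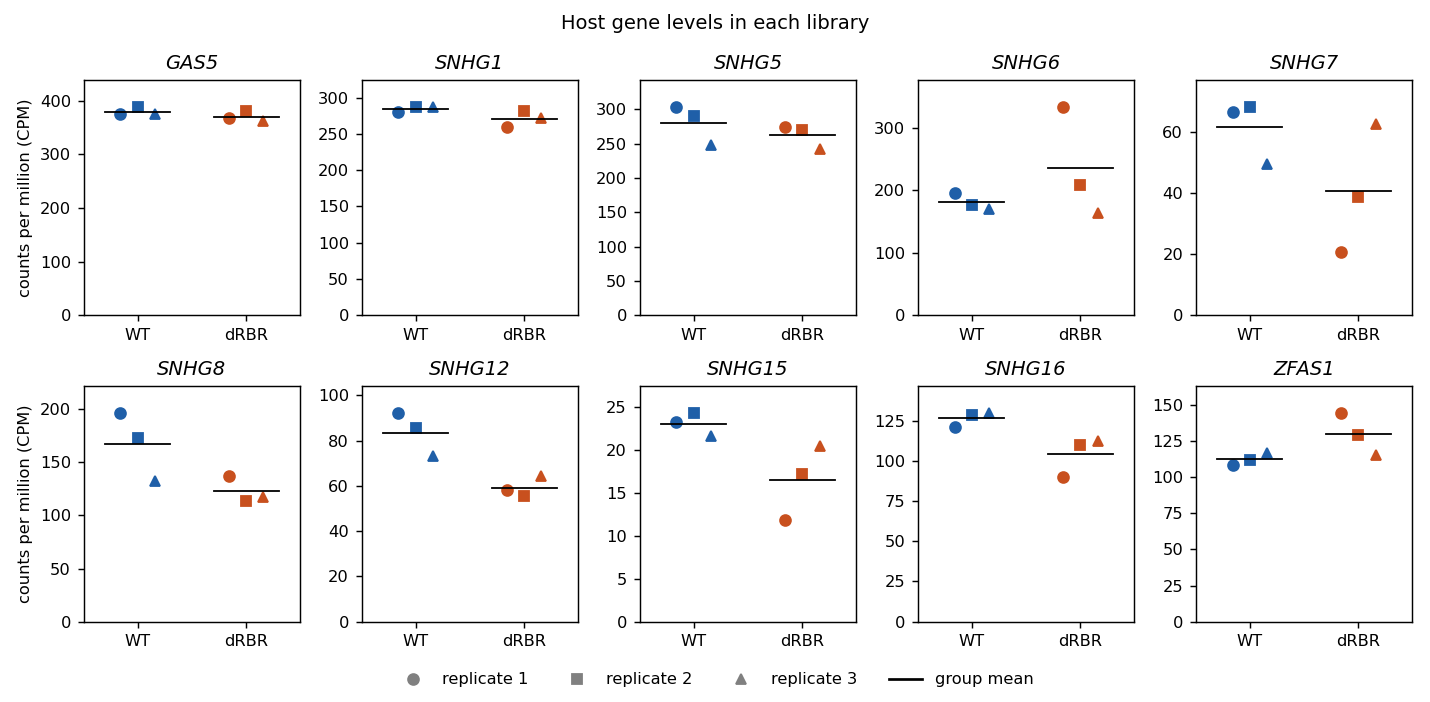
CPM, normalized to library size by TMM (trimmed mean of M-values), of the 10 host genes in the 3 CTCF-WT and 3 CTCF-dRBR libraries, with a symbol for each replicate and a line at the group mean. *SNHG12*, *SNHG15* and *SNHG16* lie lower in all 3 CTCF-dRBR libraries, and *SNHG6* and *SNHG7* are spread widest in CTCF-dRBR.

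*GAS5*, *SNHG1*, *SNHG5*, *SNHG6*, *SNHG16* and *ZFAS1* hold mainly or only C/D box snoRNAs in RefSeq. *GAS5*, a growth arrest transcript with 10 C/D box snoRNAs and SNORA103 in its introns, had 374, 388 and 374 CPM in replicates 1, 2 and 3 of CTCF-WT, against 367, 380 and 361 CPM in those of CTCF-dRBR. It was the most abundant of the 10 in CPM and its estimate was the closest to 0, with a log2 fold change of −0.04 (95% interval −0.22 to 0.15, adjusted p = 0.747, limma-voom). *SNHG1*, the host of SNORD22 and SNORD25 to SNORD31, had 281, 287 and 287 CPM in CTCF-WT and 259, 281 and 272 CPM in CTCF-dRBR. The groups overlapped in a single library each, with a log2 fold change of −0.07 (95% interval −0.27 to 0.12, adjusted p = 0.531, limma-voom). *SNHG5*, the host of SNORD50A and SNORD50B, had 303, 290 and 248 CPM in CTCF-WT and 274, 270 and 241 CPM in CTCF-dRBR. Its lowest CTCF-WT library was below 2 of the CTCF-dRBR libraries, and the log2 fold change was −0.10 (95% interval −0.37 to 0.17, adjusted p = 0.550, limma-voom).

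*SNHG6*, the host of SNORD87, had 196, 176 and 171 CPM in CTCF-WT and 334, 209 and 164 CPM in CTCF-dRBR. Its highest and its lowest library were both CTCF-dRBR, and replicate 1 alone was 1.82 times the mean of the other 5 libraries. The log2 fold change was 0.31 (95% interval −0.30 to 0.92, adjusted p = 0.401, limma-voom), and 0.03 without CTCF-dRBR replicate 1. *ZFAS1*, the host of SNORD12, SNORD12B and SNORD12C, which starts close to *ZNFX1* on the other strand, had 109, 112 and 117 CPM in CTCF-WT and 144, 129 and 116 CPM in CTCF-dRBR. CTCF-dRBR replicate 3 fell within the CTCF-WT range, and the log2 fold change was 0.19 (95% interval −0.07 to 0.46, adjusted p = 0.266, limma-voom). *SNHG6* and *ZFAS1* were the only members with a positive estimate. *SNHG16*, the host of SNORD1A, SNORD1B and SNORD1C, had 121, 128 and 129 CPM in CTCF-WT and 90.1, 110 and 112 CPM in CTCF-dRBR. The groups were apart, CTCF-dRBR below CTCF-WT (p = 0.1 by a two-sided exact permutation test, the lowest value possible with 3 against 3), with a log2 fold change of −0.28 (95% interval −0.55 to −0.01, adjusted p = 0.192, limma-voom).

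The remaining hosts hold H/ACA box snoRNAs. *SNHG12*, with SNORA16A, SNORA44, SNORA61 and the C/D box SNORD99, had 92.1, 85.4 and 73.2 CPM in CTCF-WT and 58.1, 55.3 and 64.3 CPM in CTCF-dRBR. Its groups did not overlap (exact permutation test, two-sided, p = 0.1), and its log2 fold change of −0.49 (95% interval −0.79 to −0.19) had the smallest unadjusted p of the 10, 0.00679 from limma-voom, and an adjusted p of 0.132. Without CTCF-dRBR replicate 1 it was −0.48 (adjusted p = 0.0719, limma-voom). *SNHG15*, the host of SNORA9 and the least abundant member, had 23.2, 24.2 and 21.6 CPM in CTCF-WT and 11.8, 17.2 and 20.5 CPM in CTCF-dRBR. Its groups did not overlap either (exact permutation test, two-sided, p = 0.1), although CTCF-dRBR replicate 3 came close to the CTCF-WT libraries, and the log2 fold change was −0.48 (95% interval −0.97 to 0.01, adjusted p = 0.199, limma-voom). Without CTCF-dRBR replicate 1 the value was −0.29.

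*SNHG8*, the host of SNORA24, had 196, 173 and 133 CPM in CTCF-WT and 137, 114 and 118 CPM in CTCF-dRBR. The groups overlapped only between the lowest CTCF-WT and the highest CTCF-dRBR library, and the log2 fold change was −0.43 (95% interval −0.84 to −0.03, adjusted p = 0.184, limma-voom). *SNHG7*, the host of SNORA17A and SNORA17B, had 66.5, 68.0 and 49.5 CPM in CTCF-WT and 20.6, 38.6 and 62.5 CPM in CTCF-dRBR. CTCF-dRBR replicate 3 was above 1 CTCF-WT library, and replicate 1 was 0.362 of the mean of the other 5 libraries. The log2 fold change of *SNHG7*, −0.66, was the largest in size among the 10 and the least precise (95% interval −1.54 to 0.23, adjusted p = 0.266, limma-voom), and it was −0.31 without CTCF-dRBR replicate 1. The 4 hosts whose introns hold H/ACA box snoRNAs, *GAS5* aside, had the 4 lowest estimates of the 10. This grouping was made after the values were seen and was not tested. The order was lost with the GC trend removed, where *SNHG16* and *SNHG5* were below *SNHG12* and *SNHG7*, and on the TPM scale, where *SNHG1* was below *SNHG8*.

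The estimates also followed GC content. Across the 10 hosts, Pearson's r between the log2 fold change and the GC content of the exons was −0.65 (Spearman's rho −0.66, 10 genes that share the same 6 libraries), and across all 13654 genes tested that had a GC value it was −0.58 (rho −0.68). *SNHG7*, with the lowest estimate, had the highest GC content of the 10, 59.3%, and *SNHG6*, with the highest estimate, had the lowest, 38.8%. *SNHG8* departed from this order, with 39.2% GC and a log2 fold change of −0.43. Its GC content was taken over 6614 exonic bases, 6166 in the canonical transcript. The length behind its deposited values, described below, was only 0.0881 to 0.182 of that of the median protein-coding gene. Whether this GC content is that of the RNA counted for *SNHG8* was not tested. After the GC trend of each library was removed, the correlation across the 10 hosts was 0.30 (rho 0.12). *SNHG7* then had a log2 fold change of −0.06 (adjusted p = 0.714, limma-voom), or 0.17 with the GC content of the canonical transcript, and *SNHG6* one of 0.00 (adjusted p = 0.988, limma-voom). *SNHG8* moved the other way, to −0.73 (adjusted p = 0.0606, limma-voom), and *SNHG16* to −0.41 (adjusted p = 0.0888, limma-voom). *SNHG12* moved to −0.33 and *SNHG15* to −0.37, *GAS5*, *SNHG1* and *SNHG5* to values between −0.34 and −0.26, and *ZFAS1* to 0.16. With the trend removed 0 of the 10 hosts passed an adjusted p under 0.05 in limma-voom, where 9.21% of all genes did, 7 had an unadjusted p under 0.05, as did 31.3% of all genes in that fit, and the median was −0.31. With the GC content of the canonical transcript these were 4 hosts, beside 32.2% of all genes, and a median of −0.19.

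**Figure D2:**
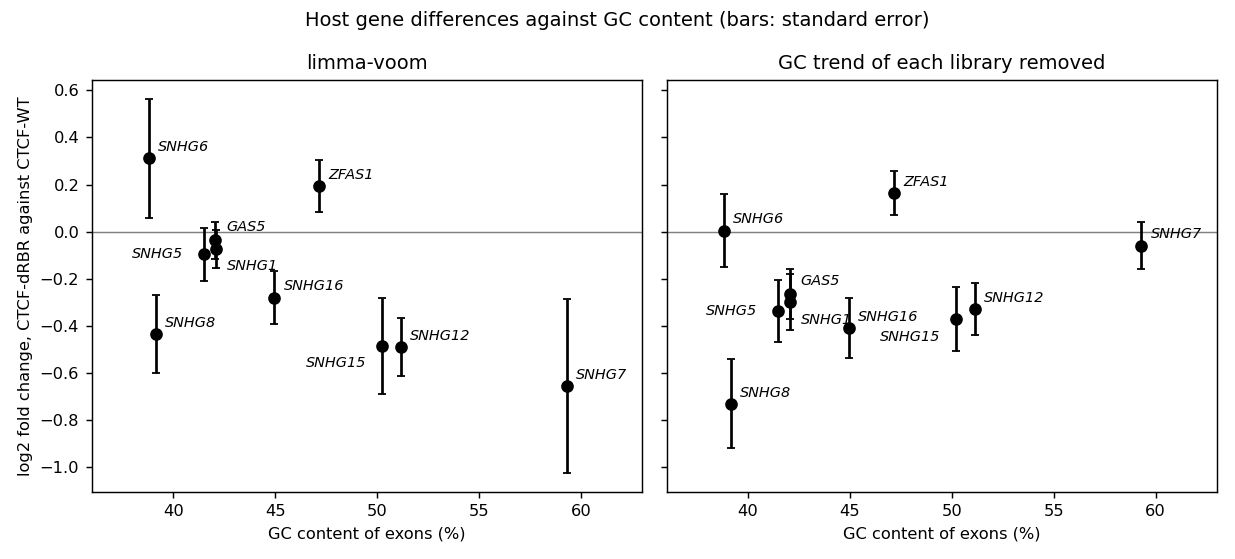
Log2 fold change of each host gene (y axis, bars are the standard error) against the GC content of its exons in percent (x axis), before and after the GC trend of each library was removed. *SNHG7* moves from −0.66 to −0.06 and *SNHG6* from 0.31 to 0.00, while *SNHG8* moves from −0.43 to −0.73.

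Removing both the GC trend and CTCF-dRBR replicate 1, an alternative chosen after the data were seen, gave calls for 2 hosts. *SNHG12* was at −0.40 (adjusted p = 0.0263, limma-voom) and *SNHG16* at −0.26 (adjusted p = 0.0224, limma-voom), where 23.5% of all genes passed. *SNHG8* was at −0.67 with an adjusted p of 0.0584 in limma-voom. When each library instead received its own weight, which gave CTCF-dRBR replicate 1 a weight of 0.0969, 7 hosts passed and 68.2% of all genes did. These were *SNHG7*, *SNHG8*, *SNHG12*, *SNHG15* and *SNHG16*, lower in CTCF-dRBR, and *SNHG6* and *ZFAS1*, higher. DESeq2 called *SNHG12* alone among the 10 (adjusted p = 0.0114), and 11.5% of all genes. *SNHG8*, *SNHG12*, *SNHG15* and *ZFAS1* kept the sign of their estimate under all 20 alternatives, with log2 fold changes of −0.73 to −0.21 for *SNHG8*, −0.61 to −0.19 for *SNHG12*, −0.91 to −0.24 for *SNHG15* and 0.09 to 0.91 for *ZFAS1*.

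**Figure D3:**
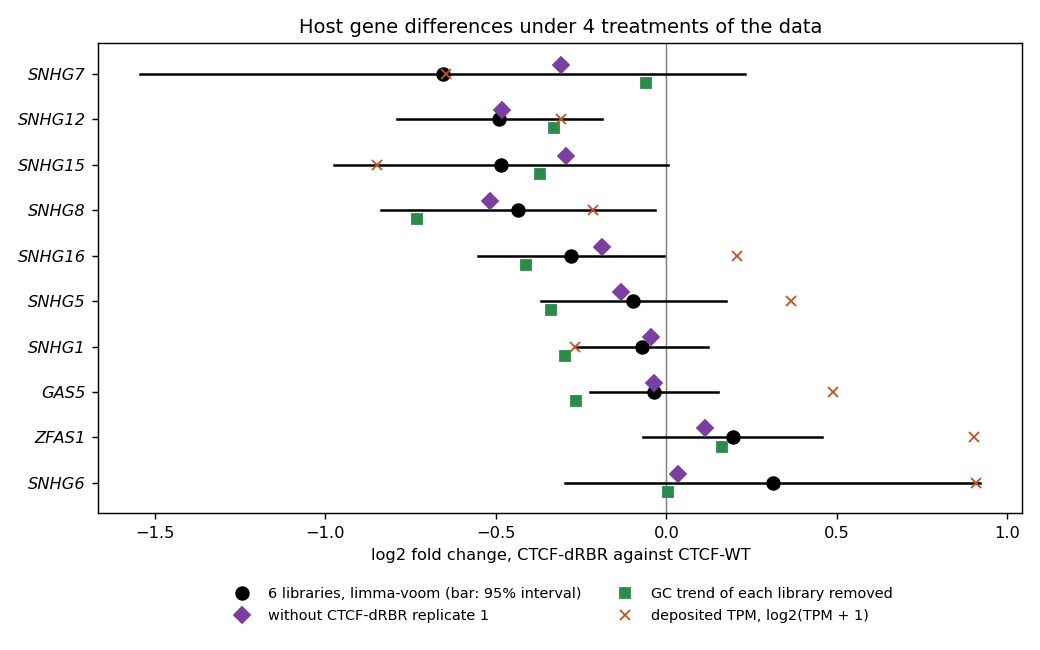
Log2 fold change of CTCF-dRBR against CTCF-WT for the 10 host genes (x axis) in limma-voom on all 6 libraries with its 95% interval, without CTCF-dRBR replicate 1, after removal of the GC trend, and on the deposited TPM. The 4 values of *SNHG1*, *SNHG7*, *SNHG8*, *SNHG12* and *SNHG15* are all below 0, and those of *GAS5*, *SNHG5* and *SNHG16* change sign on the TPM scale.

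The deposited TPM (transcript abundance, scaled to the same sum in each library) divide counts by an estimated gene length. Levels can then be compared between genes only as far as that length holds, and it was very short for *SNHG7* and *SNHG12*, as given below. In CTCF-WT, *SNHG5* was highest with 508 ± 76.8 TPM (SD, n = 3), followed by *SNHG7* with 500 ± 72.5 TPM, *SNHG12* with 449 ± 72.0 TPM, *GAS5* with 404 ± 110 TPM, *SNHG8* with 387 ± 65.4 TPM, *SNHG1* with 361 ± 76.3 TPM and *SNHG6* with 340 ± 80.5 TPM. Neighbors in this order overlapped between libraries throughout these 7. *ZFAS1* with 125 ± 53.5 TPM, *SNHG16* with 50.5 ± 19.3 TPM and *SNHG15* with 22.6 ± 6.70 TPM each lay apart from the next. In CTCF-dRBR the same 3 genes were lowest, in the same order, with 227 ± 63.2, 56.0 ± 6.40 and 13.4 ± 7.33 TPM. *SNHG6* had the highest mean there, 698 ± 392 TPM, from 1129, 599 and 365 TPM in replicates 1, 2 and 3. Over all 6 libraries the mean TPM of 9 of the hosts was above that of at least 89.1% of the genes tested, and that of *SNHG15* was above that of 69.1%. By mean CPM, *SNHG7* was above 70.6% of the genes tested, *SNHG12* above 78.6% and *SNHG15* above 48.1%, and the other hosts above at least 87.2%.

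On the TPM scale the groups overlapped for all 10 hosts, where 15.3% of all genes tested did not overlap, 13.1% of them higher and 2.26% lower in CTCF-dRBR. *ZFAS1* had 81.9, 108 and 185 TPM in CTCF-WT replicates 1, 2 and 3 and 283, 241 and 158 TPM in CTCF-dRBR replicates 1, 2 and 3 (exact permutation test, two-sided, p = 0.2). *GAS5* had 309, 378 and 525 TPM in CTCF-WT and 625, 610 and 445 TPM in CTCF-dRBR, a higher mean in CTCF-dRBR where its CPM was level. *SNHG12* had 517, 373 and 457 TPM in CTCF-WT and 346, 296 and 452 TPM in CTCF-dRBR, so that the separation seen in CPM was not seen in TPM. TPM moved all genes: in limma-trend on log2(TPM + 1) the median log2 fold change of all genes tested was 0.40, and that of the hosts was −0.0032. Protein-coding genes held 30.2% to 63.2% of the TPM of a library, and 82.5% to 92.1% of its counts.

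Together the 10 hosts took up nearly the same share of the counts in every library, 0.156% to 0.169%, with 0.165% ± 0.0017 in CTCF-WT against 0.165% ± 0.0073 in CTCF-dRBR (SD, n = 3). Their summed level was 1699 ± 84.4 CPM in CTCF-WT against 1610 ± 82.5 CPM in CTCF-dRBR. In TPM the order was the other way, with a sum of 3147 ± 135 in CTCF-WT against 3583 ± 370 in CTCF-dRBR. With TPM rescaled so that protein-coding genes had the same total in every library, the sum was again lower in CTCF-dRBR, 8348 ± 2023 in CTCF-WT against 6742 ± 631 in CTCF-dRBR. CTCF-WT replicate 3, with 6279, was below all 3 CTCF-dRBR libraries, and the difference of −1606 was −619.7 without CTCF-WT replicate 1, whose sum was 10321, and −2641 without CTCF-WT replicate 3.

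For 5 of the hosts, the ratio of counts to TPM varied between libraries beyond that of the median gene. RSEM divides the counts of a gene by an effective length that depends on which of its isoforms it assigns reads to, so that counts per TPM, set relative to the median protein-coding gene of the library, show the length it used. For *GAS5*, *SNHG5*, *SNHG6*, *SNHG16* and *ZFAS1* this value varied at most 1.23-fold between the 6 libraries, close to the median gene (1.20-fold over 8927 genes with at least 200 counts and 1 TPM in every library). For *SNHG1*, *SNHG7*, *SNHG8*, *SNHG12* and *SNHG15* it varied more than 2-fold, as it did for 2.18% of these genes and for 7.60% of the 526 among them that are not protein-coding. *SNHG15* was the widest, with 0.189, 0.216 and 0.562 of the median gene in CTCF-WT replicates 1, 2 and 3 and 1.14, 0.451 and 0.372 in CTCF-dRBR replicates 1, 2 and 3. *SNHG1* had 0.133, 0.190 and 0.403 in CTCF-WT and 0.514, 0.370 and 0.286 in CTCF-dRBR. *SNHG7* ran from 0.0246 to 0.0607 and *SNHG12* from 0.0362 to 0.0817, the lowest of the hosts, so that their TPM were high for their counts. For all 5 the lowest value was that of CTCF-WT replicate 1, and for *SNHG1*, *SNHG7*, *SNHG8* and *SNHG15* the highest was that of CTCF-dRBR replicate 1. *SNHG7* had 62.5 CPM and 657 TPM in CTCF-dRBR replicate 3, and 66.5 CPM and 548 TPM in CTCF-WT replicate 1, so that the 2 units put these libraries in opposite order. Counts per isoform were not used here.

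**Figure D4:**
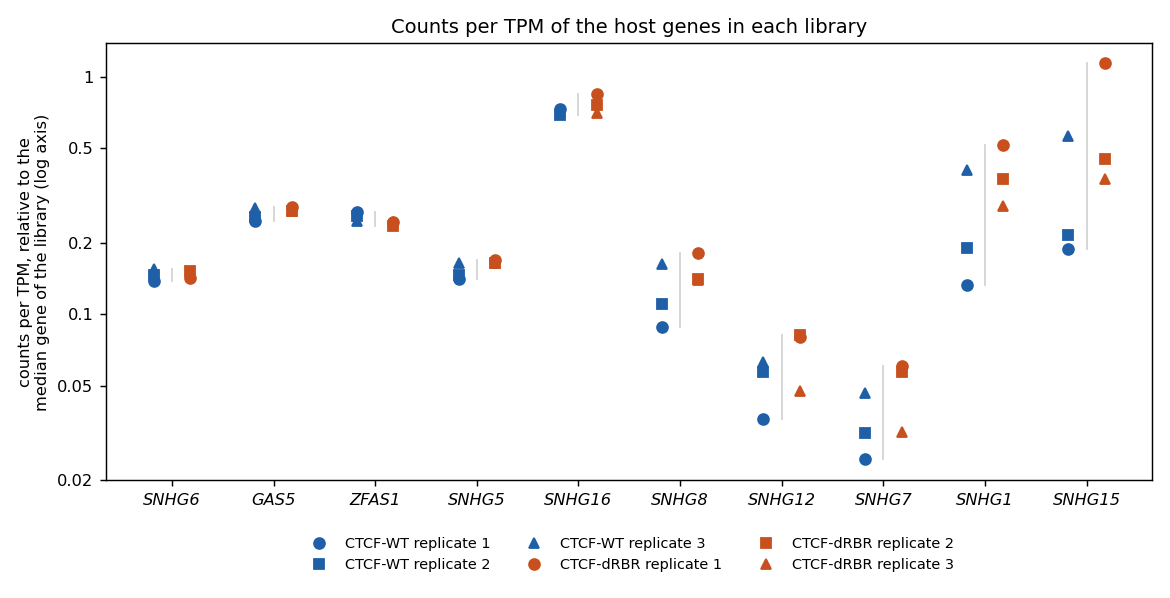
Expected counts per TPM of each host gene relative to the median protein-coding gene of the library (y axis, log scale), with a color for each group and a symbol for each replicate. *SNHG6*, *GAS5*, *ZFAS1*, *SNHG5* and *SNHG16* have nearly 1 value in all 6 libraries, whereas *SNHG15* runs from 0.189 to 1.14.

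Rows under the names of the snoRNAs held hardly any counts. RefSeq places 37 snoRNAs within the 10 hosts, 28 C/D box and 8 H/ACA box by name, of 60 to 134 bases. By symbol, 13 of them had a single row in the deposited values, of which 8 had 0 counts in all 6 libraries, 9 had several rows under a symbol, and 15 were matched to no row. Only 6 of the 37 were also matched by coordinates, and of the single rows at 0 counts only that of SNORD1B was. The other rows at 0 are not shown to be the copies within the hosts. The highest count in any row and library was 10, whereas the hosts together had 50719 to 88922 counts in a library. The 3 C/D box snoRNAs of *ZFAS1* are given as an example of what the introns carry, from GRCh37, on the gene strand, with the C box letters TGATGA and the last CTGA, the letters of a D box, in capitals.
SNORD12 (chr20:47897220-47897309, plus strand): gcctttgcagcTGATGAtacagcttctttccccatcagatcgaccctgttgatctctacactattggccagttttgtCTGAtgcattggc
SNORD12B (chr20:47896856-47896946, plus strand): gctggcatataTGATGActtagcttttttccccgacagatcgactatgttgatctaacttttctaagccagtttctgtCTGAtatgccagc
SNORD12C (chr20:47895477-47895565, plus strand): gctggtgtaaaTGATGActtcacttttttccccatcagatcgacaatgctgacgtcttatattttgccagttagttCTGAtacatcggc

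SNORD12 had 1, 4 and 5 expected counts in CTCF-WT replicates 1, 2 and 3 and 5, 6 and 3 in CTCF-dRBR replicates 1, 2 and 3, SNORD12B 0 to 5 and SNORD12C 0 to 3 in any library. SNORD99 of *SNHG12* had 10, 5 and 5 counts in CTCF-WT and 3, 0 and 2 in CTCF-dRBR. None of these rows passed the filter on low values, so they were not tested.

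Several hosts share their position with other genes, and although the deposited values are marked as stranded, how the counting used strand is not given in the sources used here. *MCMDC2*, which shares 1488 exonic bases with *SNHG6* on the other strand, had 4 to 15 counts in a library. Coordinates are from Gencode v44 lifted to GRCh37. *SNHG8* (chromosome 4, 119199858 to 119206471, plus strand) overlaps *PRSS12*, a protease gene on the other strand, by 2487 exonic bases. *PRSS12* had 719 ± 21.4 CPM in CTCF-WT libraries and 894 ± 113 CPM in CTCF-dRBR (SD, n = 3), with an estimate of 0.31 on the log2 scale (adjusted p = 0.176, limma-voom), several times the level of *SNHG8* and with the opposite sign. *SNHG7* (chromosome 9, 139615818 to 139622636, minus strand) overlaps *FAM69B* by 1482 exonic bases on the other strand, with 30.1 ± 4.20 CPM in CTCF-WT against 25.8 ± 12.0 CPM in CTCF-dRBR. *GAS5* (chromosome 1, 173827697 to 173838020, minus strand) overlaps *GAS5-AS1* by 132 exonic bases and the span of *ZBTB37*, both on the other strand. Their log2 fold changes were 0.91 for *GAS5-AS1* and 0.21 for *ZBTB37*.

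*ZFAS1* (chromosome 20, 47894715 to 47916137, plus strand) overlaps *ZNFX1* by 249 exonic bases on the other strand. *ZNFX1* had 68.9 ± 0.98 CPM in CTCF-WT against 56.3 ± 5.15 CPM in CTCF-dRBR, which gave a log2 fold change of −0.29 (adjusted p = 0.169, limma-voom), against 0.19 for *ZFAS1*. *SNHG12* (chromosome 1, 28905050 to 28909644, minus strand) shares 8 exonic bases with *TRNAU1AP* on the other strand, whose log2 fold change was −0.02. *SNHG5* (chromosome 6, 86360209 to 86388650, minus strand) shares 943 exonic bases with *RP11-321N4.5* on its own strand, a gene with 0 to 126 expected counts in a library and a log2 fold change of −3.21 (adjusted p = 0.167, limma-voom), and 715 with the pseudogene *PKMP3*. The genes with deposited values that overlap *SNHG6* (chromosome 8, 67832796 to 67838633, minus strand) and *SNHG16* (chromosome 17, 74553809 to 74667067, plus strand) had at most 15 counts in a library. These are *MCMDC2*, described above, and *ST6GALNAC1*, *ST6GALNAC2*, *RP11-666A8.9*, *RP11-666A8.11*, *RNU6-227P* and SNORD1B for *SNHG16*. *ENSG00000284526*, which shares 1648 exonic bases with *SNHG16* on the other strand, and *ENSG00000286750* also overlap it and had no row in the deposited values. *SNHG1* (chromosome 11, 62619450 to 62623425, minus strand) and *SNHG15* (chromosome 7, 45022618 to 45026560, minus strand) overlapped no other gene in this annotation, matched by span, although RefSeq places the snoRNAs given above within them.

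Genes around the hosts in the same pathway gave the following picture, in which 0 genes of any list passed an adjusted p under 0.05 in limma-voom. Over all genes tested, 50.6% had an estimate below 0, and 12.8% were lower and 12.6% higher at an unadjusted p under 0.05. Of 9 other long noncoding hosts tested, 8 had an estimate below 0, with a median log2 fold change of −0.58, and 5 were lower and 0 higher at an unadjusted p under 0.05. The median was −0.35 without CTCF-dRBR replicate 1 and −0.06 on the TPM scale. *SNHG10*, among these 9, holds no snoRNA in RefSeq. *SNHG17* had 24.8 ± 2.58 CPM in CTCF-WT against 11.5 ± 2.67 CPM in CTCF-dRBR (log2 fold change −1.11, adjusted p = 0.0959, limma-voom). *SNHG9* had 5.05 ± 1.74 and 1.41 ± 1.12 CPM (log2 fold change −1.96, adjusted p = 0.142, limma-voom). *SNHG14* was the only one with a positive estimate, 115 ± 3.44 CPM in CTCF-WT against 134 ± 20.2 CPM in CTCF-dRBR (log2 fold change 0.20). *SNHG17* and *SNHG9* passed after the GC trend was removed, at −0.94 (adjusted p = 0.0199, limma-voom) and −1.08 (adjusted p = 0.0413, limma-voom), where 9.21% of all genes did.

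The proteins that bind the snoRNAs were measured as mRNA. Of 17 snoRNP core and assembly proteins, 15 had an estimate below 0, the median was −0.46, and 11 were lower and 0 higher at an unadjusted p under 0.05. Of all genes tested, 50.6% had an estimate below 0, and 12.8% were lower and 12.6% higher at that p. *FBL*, the methyltransferase of C/D box particles, had 115 ± 12.6 CPM in CTCF-WT against 50.1 ± 11.6 CPM in CTCF-dRBR (log2 fold change −1.24, adjusted p = 0.0959, limma-voom). *NOP56*, a C/D box core protein whose own gene hosts snoRNAs, had 482 ± 3.58 and 351 ± 9.52 CPM (log2 fold change −0.46, adjusted p = 0.0959, limma-voom). The estimates were positive for *SHQ1*, an assembly factor of H/ACA box particles (0.11), and *NOP58*, the partner of *NOP56* (0.09). Without CTCF-dRBR replicate 1 the median was −0.43 and 7 of the 17 passed, where 3.90% of all genes did. With the GC trend removed it was −0.45 and 7 of 16 passed, where 9.21% of all genes did. On the TPM scale the median was 0.23, beside 0.40 for all genes tested.

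Hosts that encode proteins were read from the same fit, in which 50.6% of all genes tested had an estimate below 0. At an unadjusted p under 0.05, 12.8% of all genes tested were lower and 12.6% higher. Of 27 such hosts other than ribosomal protein genes, 16 had an estimate below 0 and the median was −0.07, with 8 lower and 0 higher at an unadjusted p under 0.05. *NOP56* and *DKC1*, the pseudouridine synthase of H/ACA box particles, were lowest by p, *DKC1* with a log2 fold change of −0.46 (adjusted p = 0.108, limma-voom). The translation factor *EIF4A2* (0.22) and *RNF149* (0.18) came first by p among those above 0. Of 24 ribosomal protein hosts, 17 had an estimate below 0 and the median was −0.21, with 5 lower and 0 higher at an unadjusted p under 0.05. By the smallest unadjusted p, *RPS3* (−0.54) and *RPL3* (−0.60) came first among those below 0 and *RPL23* (0.33) and *RPL5* (0.22) among those above 0. Of 16 nonsense-mediated decay factors, 14 had an estimate below 0 and the median was −0.24, with 3 lower and 0 higher at an unadjusted p under 0.05, among them *MAGOH* (−0.56). *NBAS* (0.14) and *UPF2* (0.13) were the 2 with a positive estimate. Among the B-lineage markers, *PAX5* (−0.60) had an estimate below 0 and *EBF1* (0.27) and *CD22* (0.13) had one above 0, and the myeloid markers tested were *LYZ* (−0.17) and *CSF1R* (−0.19).

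**Figure D5:**
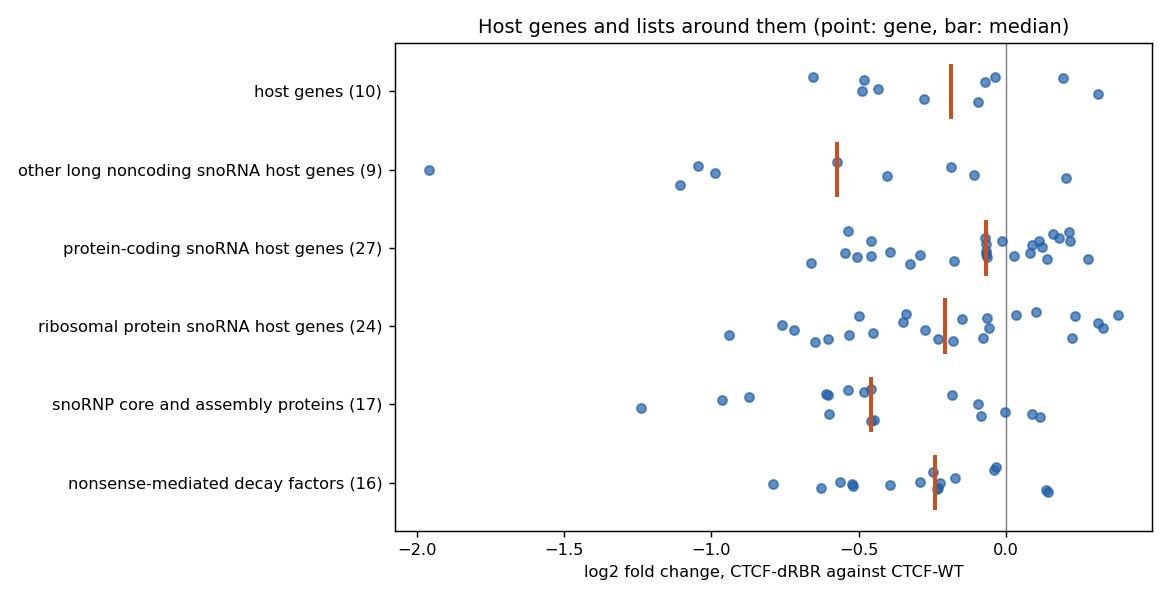
Log2 fold change of CTCF-dRBR against CTCF-WT (x axis) for the genes tested in each list, with a point for each gene and a bar at the median of the list. The 10 host genes center on −0.19, the snoRNP proteins on −0.46 and the other long noncoding hosts on −0.58.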

How the data were processed

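RNA of SEM cells, 3 libraries each of CTCF-WT and CTCF-dRBR, was depleted of ribosomal RNA and sequenced (paired-end per the methods, single-end per the labels). The authors trimmed the reads with Trim Galore (0.6.3), aligned them to hg19 with STAR (2.7.9a) and quantified Gencode genes with RSEM (1.3.1). The deposited expected counts are estimates of reads per gene without normalization, and the deposited TPM were scaled by the authors for effective length and total. Spike-in rows were left out.

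Genes that reached 1 CPM in at least 1 library were kept, counts were normalized by TMM in edgeR (4.0.16) and compared by limma-voom (limma 3.58.1, R 4.3.3) without covariates, two-sided, with Benjamini-Hochberg adjustment over all genes tested. DESeq2 (1.42.0) was an alternative, as were other filters, normalizations and weights, TPM and each library left out in turn. DESeq2 and edgeR's test used rounded counts. Differences in the mean of a single gene were also tested by exact permutation of the 6 libraries (smallest p 0.1). The GC trend of each library was fitted by loess (span 0.5) on log2 CPM (prior count of 1) and subtracted. GC content came from the exons of Gencode v44 on GRCh37, which differ from the gene models the authors used. The fits were also run on simulated counts with known changes. These counts had no GC trend by library, unlike the data, so they do not show how the fits handle it.

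The hosts and lists were chosen with earlier results of these data known. The genes named were the 10 hosts, every gene that overlaps them, snoRNAs within them by a mean of at least 10 expected counts (none reached it, and those named were chosen after their values were seen), the 2 genes with the smallest unadjusted p in each direction of each list, and CTCF. Some genes that this rule names are not reported here. SNHG4 was not used here. An observed count of 0 allows 3 counts, 0.0566 to 0.10 CPM, which covers counting error only. Libraries differed from each other by more than sampling noise.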

Additional observations from a re-analysis of the deposited data

How the results depend on the processing

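The median log2 fold change of the hosts was below 0 under all 20 alternatives, while calls and single directions changed with the processing, for which the cause was not tested. Genes past an adjusted p under 0.05 numbered 1619 with DESeq2, 9583 with library weights (voomWithQualityWeights), 833 on log2(TPM + 1), 760 on log2(TPM + 0.1), 1258 with the GC trend removed, 1393 with the GC of the canonical transcript in its place and 3139 with the GC trend and CTCF-dRBR replicate 1 removed, the last 2 chosen after seeing the data. They numbered 0 to 535 when a library was left out, all 535 without CTCF-dRBR replicate 1, and 0 of the hosts passed in any of these fits. Host genes past the threshold numbered 1 with DESeq2, 7 with library weights and 2 with the GC trend and CTCF-dRBR replicate 1 removed. Their median was −0.11 with library size only, −0.27 with no filter, −0.0032 on log2(TPM + 1), −0.0011 on log2(TPM + 0.1), −0.31 with the GC trend removed, and −0.22 to −0.16 when a library was left out. The summed level of the hosts differed by 436 TPM (239 to 605 when a library was left out), −88.5 in CPM and −1606 in TPM rescaled to an equal protein-coding total. *GAS5* reversed to 0.0012 with upper quartile scaling, 0.037 with library size only, 0.49 on log2(TPM + 1) and 0.49 on log2(TPM + 0.1). *SNHG1* reversed to 0.0014 with library size only. *SNHG5* reversed to 0.37 and 0.37 and *SNHG16* to 0.21 and 0.21 on the same 2 TPM scales. *SNHG6* reversed to −0.12 with the GC trend and CTCF-dRBR replicate 1 removed, and *SNHG7* to 0.17 with the GC of the canonical transcript. Libraries with the same replicate number did not deviate together, with correlations of −0.34, 0.10 and −0.47. No library correlated best with the library of its own number in the other group. With the replicate number as a block, 0 genes and 0 of the hosts passed, and 1423 genes had an unadjusted p under 0.05, against 3569 without it.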
